A study of Glycine max with 8 samples.

Results

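Among the 4 libraries of the soybean line OX5, 200 loci were examined that part OX5-1 and OX5-2 from OX5-3 and OX5-4. They were chosen from 31785 listed loci, of which 18001 had a mean of at least 5 FPKM (fragments counted per unit of gene length and of sequencing, a level corrected for gene length and library depth) over all 8 libraries. A locus qualified when its values in OX5-1 and OX5-2 were both above, or both below, those in OX5-3 and OX5-4. The 200 with the largest difference between the pair means on log2(FPKM + 1) were kept, 60 of them higher and 140 lower in OX5-1 and OX5-2. The OX5 values therefore chose the loci and are given as a description, with no test. WT was used by the choice only through the mean over 8 libraries.

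The leaves were mature leaves of Glycine max, sampled from OX5 (4 libraries) and WT (4 libraries). Both lines had sufficient phosphorus and were sampled at the R6 stage, when the seeds fill the pod cavity. The labels do not say what sets OX5 apart from WT, how many plants stand behind the 4 libraries of each line, or any batch. Whether the libraries of a line are separate plants is therefore not known, so the p-values speak only of the spread among these samples, and that spread may be a technical one. A mature leaf at this stage is a source organ: it exports photosynthate to the filling seeds and, as it ages, breaks down leaf protein and sends the nitrogen to them. Messenger RNA levels of a whole leaf are an average over mesophyll, epidermis and vascular cells, and fewer cells of a type and less RNA per cell cannot be told apart.

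The files do not pair the locus IDs with gene names, so no function is given to any locus, the leaf label could not be checked against marker genes, and only 4 IDs are printed. Whole reads recovered from the steps of the FPKM values numbered 17536942 to 19139497 per OX5 library and 18768431 to 19156866 per WT library. OX5-4 had the highest summed FPKM, at 623720, against 594118 to 597668 in the other OX5 libraries. Over the 30424 loci with a mean of at least 0.5 FPKM, OX5-1 correlated with OX5-2 at r = 0.982 and OX5-3 with OX5-4 at r = 0.978, while correlations between the pairs ran from 0.90 to 0.938. WT libraries correlated with one another at 0.924 (WT-1 with WT-4) to 0.974 (WT-1 with WT-3). With the WT libraries, OX5-3 and OX5-4 correlated at 0.929 to 0.965, and OX5-1 and OX5-2 at 0.881 to 0.925. Loci are not independent replicates.

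Parting of the pairs was common in the whole table, and the 200 loci are its far end. Of the 18001 loci, 43.2% had both OX5-1 and OX5-2 above OX5-3 and OX5-4, and 24.4% had both below. Over the 30424 loci with a mean of at least 0.5 FPKM, the median pair difference was 0.17 log2 units as deposited. After scaling by median-ratio size factors it was 0.01. How far the scaling sets the balance of these shares was not tested. Among the 200 largest differences the lower direction was the more frequent, with 140 loci. The last 5 loci taken differed by 2.30 to 2.32 log2 units between the pair means, and the first 5 left out by 2.28 to 2.30.

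**Figure D1:**
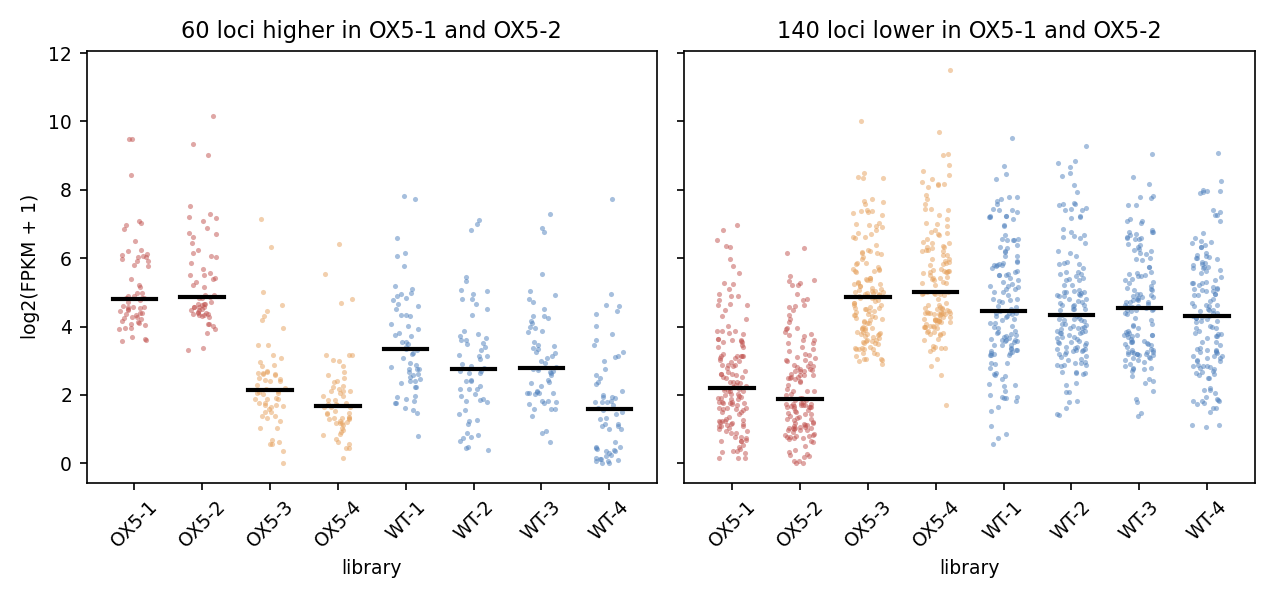
Levels of the 60 loci higher (left) and 140 lower (right) in OX5-1 and OX5-2, as log2(FPKM + 1), in each of the 8 libraries; each point is a locus and each black bar the median. The loci were chosen for the gap between the OX5 pairs; in both panels the WT medians lie nearer to OX5-3 and OX5-4, and in the left panel WT-4 has the lowest median of the 8.

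In the 60 loci of the higher set, the median level was 26.8 FPKM in OX5-1 and 27.9 FPKM in OX5-2. It was 3.42 FPKM in OX5-3 and 2.19 FPKM in OX5-4. In WT the median was 9.07, 5.72, 5.97 and 2.01 FPKM in WT-1 to WT-4. WT-1 to WT-3 thus stood above OX5-3 and OX5-4 and far below OX5-1 and OX5-2, whereas WT-4 was below all OX5 libraries. The pair difference of these loci was 2.31 to 5.62 log2 units, with a median of 2.82.

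Low values in this set were counted library by library. None of the 60 was under 1 FPKM in OX5-1 or OX5-2, but 6 were in OX5-3 and 10 in OX5-4. In WT, 1 was under 1 FPKM in WT-1, 8 in WT-2, 3 in WT-3 and 20 in WT-4. WT-4 had the lowest value of the 8 libraries at 32 of the 60 loci, and OX5-4 at 18. Together the 60 loci made up 0.67% and 0.838% of all FPKM in OX5-1 and OX5-2. They made up 0.088% and 0.0531% in OX5-3 and OX5-4, and 0.223%, 0.157%, 0.157% and 0.0844% in WT-1 to WT-4.

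The largest pair difference was at Glyma.08G189600.Wm82.a4.v1 on chromosome 8. It had 67.6 and 69.5 FPKM in OX5-1 and OX5-2 (3802 and 4120 reads) and 0.295 and 0.534 FPKM in OX5-3 and OX5-4 (16 and 29 reads). In WT it had 5.77, 3.09, 2.01 and 0 FPKM in WT-1 to WT-4, the last with no read among 19156866, which allows up to 0.0505 FPKM (3 reads, counting error only). No WT library came near OX5-1 or OX5-2, and the WT range enclosed the values of OX5-3 and OX5-4. Its mean was 34.5 ± 39.3 FPKM in OX5 and 2.72 ± 2.40 FPKM in WT (SD, n = 4 each), and the OX5 spread was larger than the difference between the lines (log2 fold change 1.71, SE 1.41, limma adjusted p = 0.513).

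WT lay elsewhere at Glyma.16G208300.Wm82.a4.v1 on chromosome 16, which had the largest pair difference among the 3 loci of the higher set with WT nearer to OX5-1 and OX5-2. It had 27.3 and 56.7 FPKM in OX5-1 and OX5-2 and 7.45 and 4.23 FPKM in OX5-3 and OX5-4. WT-1 to WT-4 had 14.3, 24.3, 14.4 and 15.1 FPKM. The WT values overlapped neither pair and lay between them, and the means of the lines were 23.9 ± 24.1 FPKM in OX5 and 17.0 ± 4.87 FPKM in WT (SD, n = 4 each). On the log2(FPKM + 1) scale the OX5 difference from WT was −0.10 (SE 0.67, limma adjusted p = 0.945).

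In the 140 loci of the lower set, the median level was 3.62 FPKM in OX5-1 and 2.70 FPKM in OX5-2. It was 28.4 FPKM in OX5-3 and 31.4 FPKM in OX5-4. In WT it was 20.9, 19.1, 22.4 and 18.9 FPKM in WT-1 to WT-4. All 4 WT medians lay close together, between the pairs and nearer to OX5-3 and OX5-4. The pair difference was 2.30 to 4.59 log2 units in size, with a median of 2.67.

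These loci held a smaller share of all FPKM than the higher set in OX5-1 and OX5-2 and a larger share in the other 6 libraries. They made up 0.251% and 0.179% of all FPKM in OX5-1 and OX5-2, and 1.41% and 2.18% in OX5-3 and OX5-4. In WT they made up 1.32%, 1.39%, 1.14% and 1.07% in WT-1 to WT-4. Under 1 FPKM were 21 of the 140 in OX5-1 and 27 in OX5-2, none in OX5-3 or OX5-4, 3 in WT-1 and none in the other WT libraries. OX5-2 had the lowest value of the 8 libraries at 102 loci, and OX5-4 the highest at 75.

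The pairs were not uniform inside. In the lower set OX5-4 was above OX5-3 at 105 of 140 loci and OX5-1 above OX5-2 at 103. In the higher set OX5-3 was above OX5-4 at 51 of 60 loci and OX5-2 above OX5-1 at 38. OX5-2 and OX5-4 were thus most often the 2 outer OX5 libraries in both sets. The median distance between OX5-1 and OX5-2 was 0.40 log2 units in the higher set and 0.31 in the lower, and between OX5-3 and OX5-4 it was 0.51 and 0.57.

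**Figure D2:**
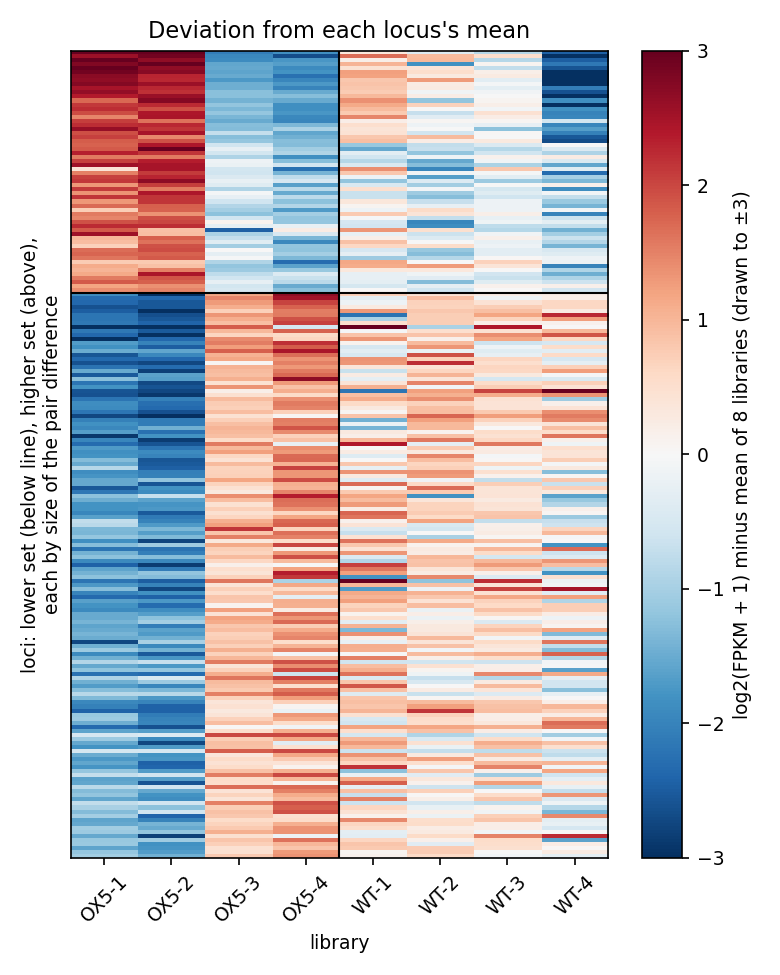
Deviation of log2(FPKM + 1) from each locus's own mean over 8 libraries, for the 60 higher loci (above the horizontal line) and the 140 lower loci (below it), each ordered by the size of the pair difference; the vertical line divides OX5 from WT, and the colour scale ends at ±3. WT-4 has the deepest blue at the top: in the first 20 rows it is the lowest WT library, and in 18 of them the lowest of all 8.

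The lower set was led by Glyma.13G278000.Wm82.a4.v1 on chromosome 13. It had 124.3 and 39.4 FPKM in OX5-1 and OX5-2 and 1023 and 2881 FPKM in OX5-3 and OX5-4. WT-1 to WT-4 had 737.1, 618.1, 533.4 and 535.6 FPKM. The WT values were above both libraries of the low pair and below both of the high pair, with OX5-4 the highest of all 8. Its mean was 1017 ± 1320 FPKM in OX5 and 606 ± 95.9 FPKM in WT (SD, n = 4 each), yet the log2 fold change of OX5 against WT, which averages log values, was −0.78 (SE 1.15, limma adjusted p = 0.73).

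At Glyma.05G065700.Wm82.a4.v1 on chromosome 5, WT was marginally nearer to OX5-1 and OX5-2. It had 0.257 and 0 FPKM in OX5-1 and OX5-2, from 5 and 0 reads (0 reads allow up to 0.146 FPKM), and 10.5 and 17.2 FPKM in OX5-3 and OX5-4, from 198 and 323 reads. WT-1 to WT-4 had 3.31, 6.67, 1.59 and 1.80 FPKM, from 32 to 135 reads. The WT values again overlapped neither pair, and the log2 fold change of OX5 against WT was 0.03 (SE 0.93, limma adjusted p = 0.987).

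**Figure D3:**
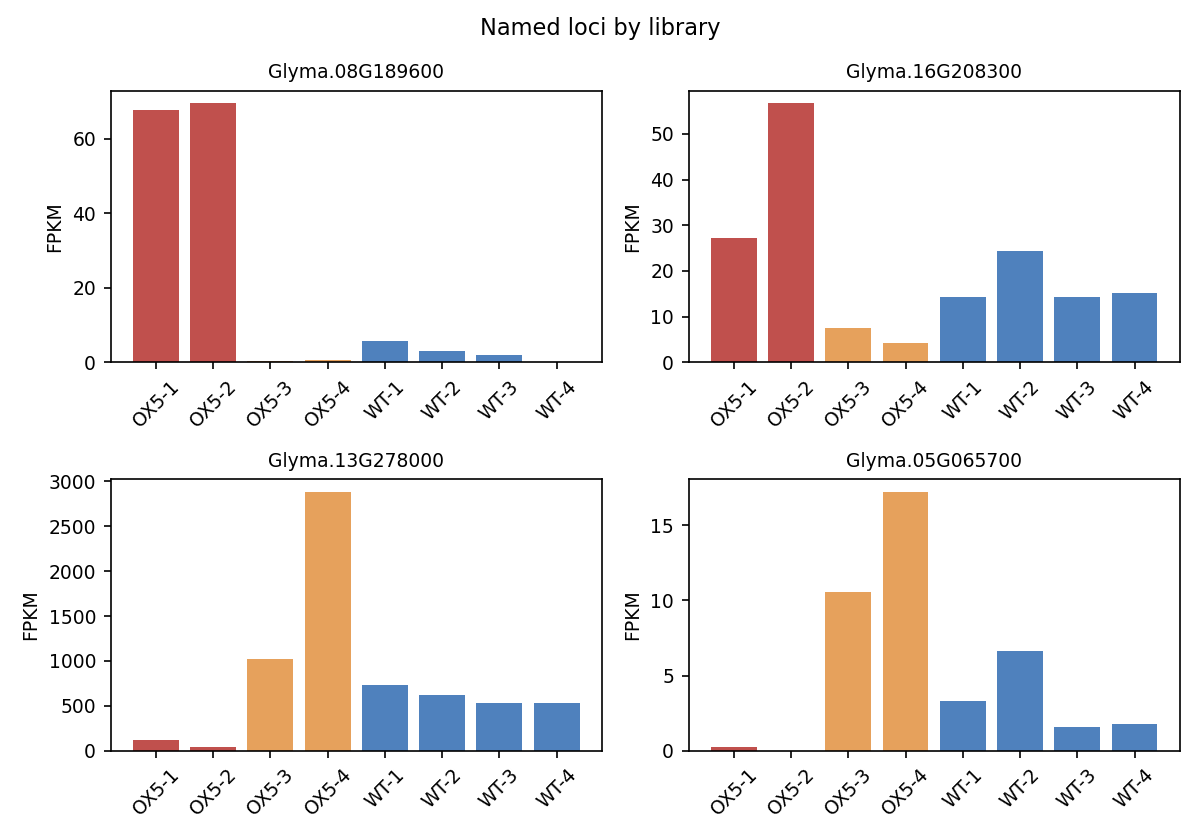
FPKM of the 4 named loci in each library (1 bar per library; OX5-1 and OX5-2 red, OX5-3 and OX5-4 orange, WT blue), each panel on its own axis from 0. At Glyma.08G189600 only OX5-1 and OX5-2, at 67.6 and 69.5 FPKM, stand high, and at the other 3 loci the WT bars lie between the pairs.

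Where WT lay was measured on log2(FPKM + 1) with 0 at the mean of OX5-3 and OX5-4 and 1 at the mean of OX5-1 and OX5-2. The median position of the WT mean was 0.238 in the higher set (interquartile range 0.0841 to 0.37) and 0.224 in the lower set (0.0537 to 0.41). WT was nearer to OX5-3 and OX5-4 at 57 of 60 and 112 of 140 loci, 169 of 200 in all. The median of the higher set was 0.145 without WT-1 and 0.379 without WT-4. This is a description, since the ends of the scale are the values that chose the loci. Among the 7724 and 4260 other loci that part the pairs in the higher and lower direction, 60.4% and 60.6% had WT nearer to OX5-3 and OX5-4. In the next 200 loci by pair difference, WT was nearer to OX5-3 and OX5-4 at 45 of 61 higher and 119 of 139 lower loci. The WT position is therefore not particular to the 200.

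Single WT libraries stood apart in the higher set. There the median position was 0.471, 0.278, 0.335 and −0.112 in WT-1 to WT-4, and 32, 48, 51 and 57 of the 60 loci were under 0.5. WT-1 thus lay about midway between the pairs, and WT-4 lay past OX5-3 and OX5-4 at 40 of 60 loci. In the lower set the medians were 0.202, 0.173, 0.182 and 0.291.

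The WT mean passed beyond OX5-3 and OX5-4, on the side away from OX5-1 and OX5-2, at 12 loci of the higher set and 28 of the lower set (20% of each), beside 35.1% and 33.1% of the other loci that part the pairs. It lay between 0.5 and 1 at 3 and 26 loci, and past OX5-1 and OX5-2 at 0 and 2. By single libraries, the 4 WT values overlapped the range of OX5-3 and OX5-4 alone at 49 of 60 and 85 of 140 loci, beside 35.9% and 32.3% of those other loci. They overlapped the range of OX5-1 and OX5-2 alone at 1 and 9, beside 19.1% and 17.6%, and overlapped both at 3 and 6, beside 25.3% and 33.9%. They overlapped neither, with the WT mean between the pairs, at 6 and 30 loci, beside 4.51% and 3.87%, and neither, with it outside, at 1 and 10, beside 15.1% and 12.2%. The wide gap between the pairs that chose the 200 loci enters all these shares, so nothing is read from the difference.

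**Figure D4:**
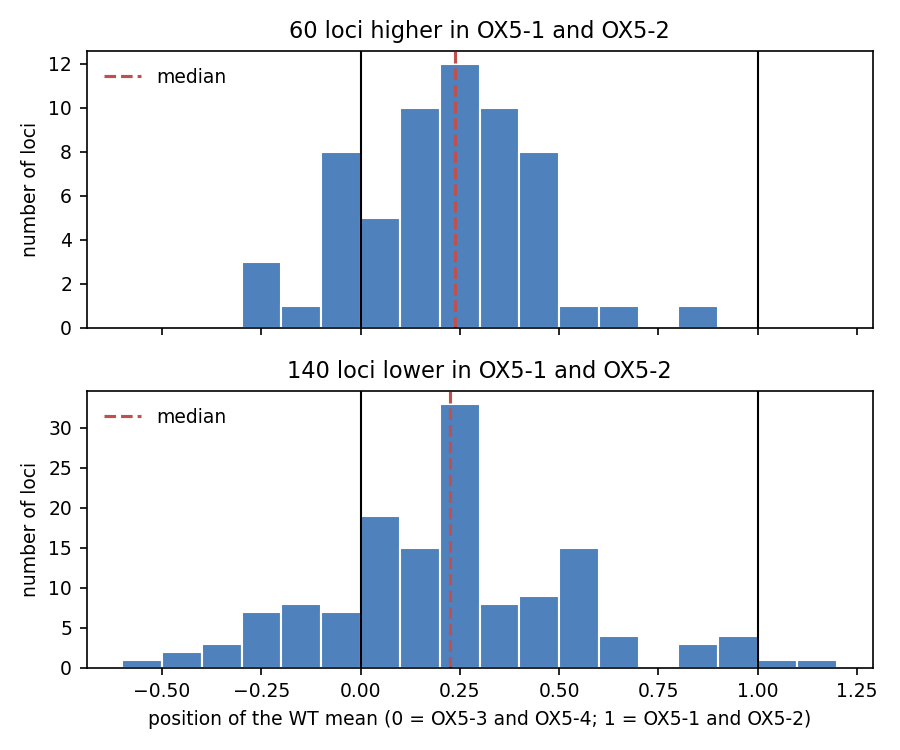
Number of loci by the position of the WT mean between OX5-3 and OX5-4 (0) and OX5-1 and OX5-2 (1), for the 60 higher loci (top) and the 140 lower loci (bottom); black lines mark 0 and 1 and the dashed line the median. Both medians, 0.238 and 0.224, lie near the OX5-3 and OX5-4 end, and the lower set has a longer tail towards 1, with 28 loci past 0.5.

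OX5-1 and OX5-2 were above every WT library at 56 of the 60 higher loci, beside 30.1% of all 18001, and below every WT library at 123 of the 140 lower loci, beside 16.7%. Nothing is read from these counts, because the choice favoured extreme OX5 values. OX5-3 and OX5-4 were above every WT library at 1 of 60 and 41 of 140 loci, beside 16.7% of all, and below every WT library at 7 and 8, beside 17.4%. The same caution holds for them.

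The comparison of OX5 with WT called none of the 200 loci. By limma on log2(FPKM + 1) over 30424 loci, 729 (2.40%) passed a Benjamini-Hochberg adjusted p of 0.05, of which 421 rose (1.38%) and 308 fell (1.01%). After rescaling the libraries to the same sum, rises were 43.2% of 565 calls instead of 57.8%. With median-ratio size factors they were 52.6% of 943 calls, and with quantile normalization 55.4% of 988. With 1 library left out, the calls over all loci numbered 58 without WT-3, 101 without OX5-1, 160 without OX5-2, 188 without WT-2, 334 without WT-4, 392 without OX5-4 and 428 without WT-1. Of these fits with 1 library left out, only that without OX5-3 gave more calls than 729, at 761. The lowest limma adjusted p among the 200 was 0.0603. At an unadjusted p under 0.05 there were 25 of 200, beside 21.7% of all loci tested, with 4 in the higher set and 21 in the lower set. Of these, 6 were higher in OX5, beside 13.0% of all, and 19 lower, beside 8.71%. The choice took loci with a wide spread inside OX5, which enters the error of this test, so a low count is built in: the median SE of the log2 fold change was 0.74 for the 200 and 0.18 for all loci tested. The median log2 fold change was 0.89 in the higher set and −0.84 in the lower set, and 0.04 over all loci tested; its sign follows from the WT position and is no further result.

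With OX5-1 and OX5-2 left out, 13 of the 200 passed (11 rises, 2 falls, of 242 calls in all), and with OX5-3 and OX5-4 left out, 140 passed (38 rises, 102 falls, of 5503). These fits compare with WT the values that the choice used. Without OX5-3 alone, 5 of the 200 passed, all falls, of 761 calls in all. Each of these fits tested 30424 loci, and nothing is read from the counts among the 200. Limma-voom on the recovered reads called none.

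The WT libraries, which entered the choice only through the mean over 8 libraries, also differed among themselves at these loci. The SD between WT libraries had a median of 0.78 log2 units in the higher set and 0.61 in the lower set, and 0.19 over the 18001 loci. On the log2(FPKM + 1) scale the distance from the lowest to the highest WT library was at least 2-fold at 46 of 60 higher loci and 93 of 140 lower loci, beside 13.5% of all. It was at least 8-fold at 18 and 7 loci, beside 0.467% of all. These are medians and counts over loci that share the same 4 libraries, given without a test. The 18001 loci are no like background for the sets. The choice took loci with a wide spread among OX5 leaves, and some could reach the mean of 5 FPKM through the high OX5 pair alone. Nothing is therefore read from the distance to all loci, here or in the comparisons of WT libraries below.

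In the higher set the WT libraries stood in an order of their own, with WT-1 highest and WT-4 lowest. The mean of log2(FPKM + 1) over the 60 loci was 5.19 and 5.38 in OX5-1 and OX5-2, 2.37 and 1.93 in OX5-3 and OX5-4, and 3.55, 2.95, 3.10 and 1.83 in WT-1 to WT-4. WT-1 was above WT-4 at 49 of 60 loci, with a median difference of 1.61 log2 units, beside −0.10 over the 18001 loci. WT-1 was at least 2-fold above WT-4 at 36 of 60 loci, beside 6.38% of all, and at least 2-fold below it at 2, beside 4.22%. Of the 6 pairs of WT libraries, WT-1 with WT-4 was singled out after the values had been seen. WT-2 and WT-3 were each at least 2-fold above WT-4 at 29 and 28 loci, and at least 2-fold below it at 5 and 0.

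Those 36 loci include 19 of the 20 with the largest pair difference in the higher set. Their median was 29.8 and 37.2 FPKM in OX5-1 and OX5-2 and 2.72 and 2.24 FPKM in OX5-3 and OX5-4. In WT-1 to WT-4 it was 12.8, 7.94, 7.63 and 0.696 FPKM. At this median WT-4 was below OX5-3 and OX5-4, and WT-1 to WT-3 were above both. The loci were split by WT-1 against WT-4, so a high WT-1 and a low WT-4 here follow from the split. A further 22 loci, within 2-fold between WT-1 and WT-4, had medians of 3.92 and 2.00 FPKM in OX5-3 and OX5-4, and of 4.20, 2.60, 5.45 and 3.52 FPKM in WT-1 to WT-4.

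Across the 60 loci the signed pair difference (OX5-1 and OX5-2 minus OX5-3 and OX5-4) went with WT-1 minus WT-4, with a Pearson r of 0.67 and a Spearman rho of 0.61. Across the 140 lower loci, where the pair difference is negative, the values were 0.20 and 0.18. Across all 18001 loci they were −0.08 and −0.13. The pair difference chose the loci, and WT-1 with WT-4 was picked after the values had been seen. The points also share the same libraries. These values are therefore descriptions without a p, and nothing is read from them. In the next 200 loci by pair difference, WT-1 was at least 2-fold above WT-4 at 22 of 61 higher loci and 51 of 139 lower loci.

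**Figure D5:**
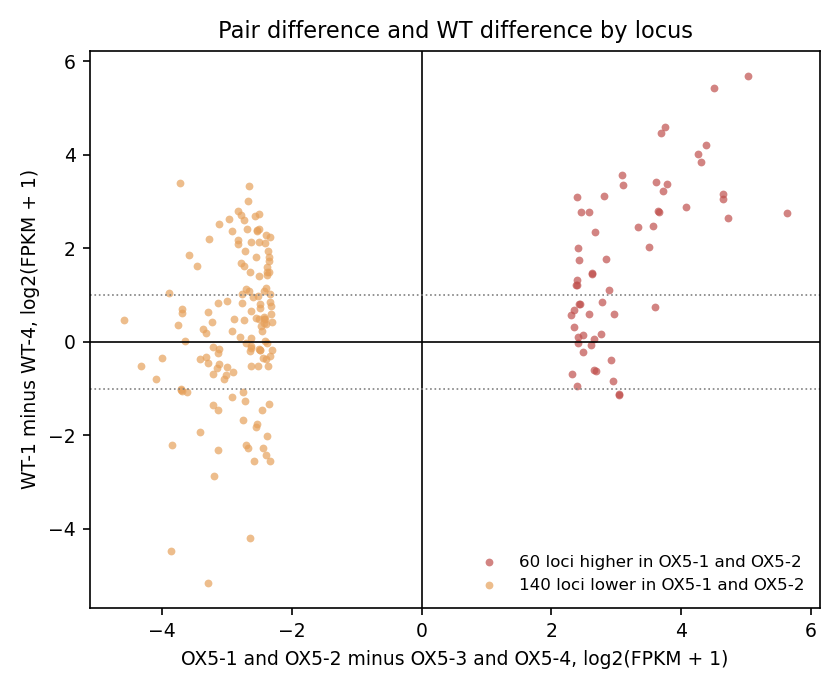
WT-1 minus WT-4 (vertical) against OX5-1 and OX5-2 minus OX5-3 and OX5-4 (horizontal), both in log2(FPKM + 1); each point is a locus, red for the 60 higher and orange for the 140 lower, and dotted lines mark 2-fold. In the higher set 36 points lie above the upper dotted line and 2 below the lower one; in the lower set 45 and 28 do.

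The lower set also had its lowest WT mean in WT-4, but WT-1 to WT-3 stood close together and single loci went both ways. Its mean of log2(FPKM + 1) was 2.52 and 2.26 in OX5-1 and OX5-2, 5.06 and 5.40 in OX5-3 and OX5-4, and 4.66, 4.67, 4.65 and 4.38 in WT-1 to WT-4. WT-1 was above WT-4 at 81 of 140 loci, beside 40.2% of all 18001. It was at least 2-fold above WT-4 at 45 of 140 loci and at least 2-fold below it at 28. In OX5-1 and OX5-2 the 45 loci had medians of 3.66 and 2.59 FPKM and in OX5-3 and OX5-4 of 22.9 and 30.5 FPKM. The 28 loci had 2.43 and 1.96 FPKM in OX5-1 and OX5-2 and 20.5 and 20.4 FPKM in OX5-3 and OX5-4. At the 45 loci the medians in WT-1 to WT-4 were 45.7, 18.0, 24.1 and 7.79 FPKM, and at the 28 loci 5.18, 16.7, 17.8 and 33.3 FPKM. The split by WT-1 against WT-4 fixed the order of these libraries in each group, so nothing is read from it.

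The choice used neither position nor gene length. Of the 200 loci, 197 have a chromosome in their ID, on all 20 chromosomes, 1 lies on a scaffold and 2 are numbered outside the annotation. The share of loci at 5 FPKM or more that belong to the 200 was 1.11% in all, highest on chromosome 15, at 19 of 831 (2.29%), and lowest on chromosome 17, at 1 of 897 (0.111%). The gene length implied by the FPKM steps had a median of 1811 bases in the higher set, 1439 in the lower set and 1753 over the 18001 loci. Whether length has a part in the parting of the pairs was not tested. The mean level over the 8 libraries had a median of 10.9 FPKM in the higher set, 20.5 in the lower set and 14.1 over all.

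Some members of the sets followed one another among the listed loci, though genes that are not listed may lie between them. In order of ID, 14 pairs of successive listed loci were both among the 200, and these pairs hold 27 of them (13.5%). Of the neighbours of the 200 that were at 5 FPKM or more, 12.7% were themselves among the 200, beside 1.11% of all such loci. The 2 loci shared their direction in 12 of the 14 pairs, of which 10 were lower and 2 higher. Whether neighbours are copies that share reads is not known here, since no sequence was used and no source used here says how such reads were counted.

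The 2 pairs of the higher set lie on chromosomes 13 and 15. On chromosome 13 the locus ranked 3 by pair difference had 65.9 and 46.7 FPKM in OX5-1 and OX5-2, 1.04 and 1.27 FPKM in OX5-3 and OX5-4, and 7.48, 13.7, 3.20 and 0.363 FPKM in WT-1 to WT-4. Its neighbour had 60.0 and 65.8 FPKM in OX5-1 and OX5-2, 5.23 and 2.94 FPKM in OX5-3 and OX5-4, and 30.1, 21.7, 14.9 and 0.396 FPKM in WT-1 to WT-4. In both, WT-4 was the lowest library of all 8.

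On chromosome 15, 3 successive loci went different ways. The first belonged to the lower set, with 1.73 and 1.74 FPKM in OX5-1 and OX5-2, 13.0 and 16.1 FPKM in OX5-3 and OX5-4, and 2.08 to 3.19 FPKM in WT. The second belonged to the higher set, with 113.8 and 86.5 FPKM in OX5-1 and OX5-2, 4.45 and 3.66 FPKM in OX5-3 and OX5-4, and 30.9, 42.6, 13.7 and 1.22 FPKM in WT-1 to WT-4. The third followed the second, with 25.6 and 27.4 FPKM in OX5-1 and OX5-2, 2.4 and 2.1 FPKM in OX5-3 and OX5-4, and 13.1, 7.82, 8.32 and 0.178 FPKM in WT-1 to WT-4.

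A pair on chromosome 3 was an exception to the usual WT position. Its 2 loci had 10.6 and 12.2, and 12.9 and 14.6 FPKM in OX5-1 and OX5-2, and 62.2 and 79.1, and 65.1 and 86.0 FPKM in OX5-3 and OX5-4. WT was at 12.9 to 19.0 and 12.5 to 19.9 FPKM, with positions of 0.878 and 0.953, so that OX5-3 and OX5-4 stood above all other libraries at both.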

How the data were processed

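RNA sequencing of mature leaves gave 8 libraries, 4 of OX5 and 4 of WT, mapped to columns by their titles. The deposited table holds FPKM made by the authors, 1 column per library, and no column was left unused (0). Per the submitters' processing notes, the tools were HTSeq 0.6.0, HISAT2 2.1.0, TopHat2, Bowtie2 2.2.3 and CASAVA. No source used here gives their roles or the strand setting, or names the genome build beyond the tag Wm82.a4.v1 in the printed locus IDs. The row with no name (1) was left out.

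The loci and all lists were chosen with earlier results of these data known. OX5 was compared with WT by limma 3.58.1 (R 4.3.3), with a variance trend, on log2(FPKM + 1), for loci with a mean of at least 0.5 FPKM, two-sided, with Benjamini-Hochberg adjustment over 30424 loci and a threshold of 0.05. Fold changes on this scale understate the change of low loci. WT positions and other counts have no test. Whole reads came out for 100% of 31785 loci (99th percentile distance from a whole number 0.0041 reads) and were used for depth, implied length and limma-voom; read limits cover counting error only. The limma fit and the recovery of reads were each tested on simulated data.

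In each direction, the named loci are the one with the largest pair difference among those with a WT position under 0.5, and the one among the others. Gene lists by description could not be matched, because the RefSeq gene table of Glycine_max_v4.0 holds no such IDs. Alternatives were another pseudocount, filter, scaling, number of loci, a replicate block and leaving out libraries. Python 3.11.15 with numpy 2.4.6 and pandas 2.3.3 was used.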

Additional observations from a re-analysis of the deposited data

Results flagged for a closer look

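Of 36 groups of 4 values examined, 4 held a lone extreme value. For independent values chance gives about 1 in 20 groups, but that rate does not apply here. Many groups summarize the same loci and libraries, and the choice parted the OX5 values into pairs, which leaves little room for a lone value. The summed FPKM of OX5-4 was 623720, above the other OX5 libraries. In WT-4 the mean of log2(FPKM + 1) over the 140 lower loci was 4.38, below 4.65 to 4.67 in the other WT libraries. WT-1 had 3 of the 140 lower loci under 1 FPKM, where the other WT libraries had none. At Glyma.16G208300.Wm82.a4.v1, WT-2 had 24.3 FPKM, above 14.3 to 15.1 FPKM in the other WT libraries.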

How the results depend on the processing

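Of the 200 loci, 0 were called in 15 of 18 alternative fits, with 25 at an unadjusted p under 0.05 by limma and 21 by limma-voom. The exceptions were 5 calls without OX5-3, 13 without OX5-1 and OX5-2 and 140 without OX5-3 and OX5-4. Leaving out 1 library gave 0 to 5. Over all loci, against 729 calls, the replicate block gave 56, limma-voom 434, the fits without OX5-1 and OX5-2 242 and without OX5-3 and OX5-4 5503. Leaving out 1 library gave 58 calls (WT-3) to 761 (OX5-3). Limma-voom and the fits without a pair were chosen after seeing the data. Rises were 57.8% of calls as deposited and 43.2% after rescaling to the same sum. With median-ratio size factors they were 52.6% of 943 calls, and with quantile normalization 55.4% of 988. Their cause was not tested. Deviations of same-numbered OX5 and WT libraries correlated at r of −0.06 to 0.13, beside −0.17 to 0.11 for other numbers. No pairing by replicate number stood out, but so few values cannot exclude one. With the block 0 of the 200 were called.

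The count with WT nearer to OX5-3 and OX5-4 was 159 (without WT-4) to 178 (without OX5-4) of 200 with the same loci. The median WT position ran from 0.145 (without WT-1) to 0.379 (without WT-4) in the higher set and from 0.152 (without OX5-4) to 0.297 (without OX5-3) in the lower set. Median-ratio size factors moved the median pair difference of all loci tested to 0.01 log2 units, from 0.17 as deposited. With loci chosen anew on that scale, 41 of 200 were in the higher set and 181 were shared; quantile normalization gave 46 and 180, a pseudocount of 0.1 gave 56 and 170, a mean of at least 1 FPKM gave 74 and 161, and a mean of at least 20 FPKM gave 45 and 92. A planned quasi-likelihood test on recovered reads was not run, as the deposited unit is FPKM.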
